A study of Mus musculus with 12 samples.

Results

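Emp2, Fgfbp1, Kbtbd11, S100a4, Ly6a and Ly6c1 are mouse genes whose RNA stood higher in transformed liver progenitor cells lacking Cdk8, and in such cells lacking Cdk19, than in replicates 1 and 2 of the transformed cells that kept both kinases. The 6 were chosen by their counts in those 8 libraries, out of 54146 gene identifiers counted, of which 14283 had enough reads to be tested, and all 6 were among those tested. RNA was sequenced from 12 libraries of BMEL cells, a bipotential mouse embryonic liver line with the capacity to form hepatocytes and bile duct cells, in 4 groups of 3. The groups were Cdk8 -/- cells with H-RasG12V (Cdk8 knockout), Cdk19 -/- cells with H-RasG12V (Cdk19 knockout), wild-type cells with H-RasG12V (RasG12V), and wild-type cells with no transformation (untransformed). The line was derived from a mouse with floxed Cdk8 alleles (CDK8F/F), so the cells called wild type share that background. Every group was collected in exponential growth on collagen, in medium with serum, insulin, IGFII and EGF. The labels give neither the number of clones behind a genotype nor the cultures behind the libraries of a group. The p-values below therefore measure a spread between libraries that may be technical.

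Cdk8 and Cdk19 are paralogous kinases of the Mediator kinase module, which docks on Mediator, the bridge between transcription factors and RNA polymerase II. The genes described here belong to no single pathway. Emp2 encodes a tetraspan membrane protein of the PMP22 family that acts on integrins and caveolae. Fgfbp1 encodes a secreted carrier that releases fibroblast growth factors from heparan sulphate in the matrix, and S100a4 a calcium-binding protein that binds non-muscle myosin and is used as a marker of motile and mesenchymal cells. Kbtbd11 encodes a BTB and kelch domain protein, a class in which many members bring substrates to the CUL3 ubiquitin ligase. Ly6a encodes Sca-1 and Ly6c1 encodes Ly-6C1, GPI-anchored surface proteins of the LY6 family known as markers of mouse blood progenitors, endothelial cells and myeloid cells, and both genes are known to respond to interferon.

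The genes lie on 5 chromosomes (GRCm38, GENCODE M21). Emp2 is at chr16:10281749-10313968 on the minus strand, Fgfbp1 at chr5:43978858-43981779 on the minus strand, Kbtbd11 at chr8:15011025-15033333 on the plus strand and S100a4 at chr3:90603771-90606045 on the plus strand. Ly6a (chr15:74994877-74998031) and Ly6c1 (chr15:75044018-75048830) share the minus strand of chromosome 15 with a gap of 45986 bases, and no other tested protein-coding gene lies between them. RefSeq promoter windows (GRCm38.p6) were at hand for 4 of the 6 genes; Kbtbd11 and Ly6a had no entry. They are shown because the genes were picked for standing high in the same libraries, so that what precedes their start sites can be compared. RefSeq gives Ly6c1 2 start sites, of which the one farther upstream is shown; the windows of both overlap. Each line holds the 250 bases before the RefSeq start, 5′ to 3′, and capitals mark TATAAA.
Emp2, chr16:10313969-10314218, minus strand: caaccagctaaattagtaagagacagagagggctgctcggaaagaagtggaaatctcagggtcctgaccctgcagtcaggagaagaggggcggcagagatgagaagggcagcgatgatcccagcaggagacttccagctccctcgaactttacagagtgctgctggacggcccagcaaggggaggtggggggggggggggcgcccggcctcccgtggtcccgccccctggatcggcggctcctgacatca
Fgfbp1, chr5:43981800-43982049, minus strand: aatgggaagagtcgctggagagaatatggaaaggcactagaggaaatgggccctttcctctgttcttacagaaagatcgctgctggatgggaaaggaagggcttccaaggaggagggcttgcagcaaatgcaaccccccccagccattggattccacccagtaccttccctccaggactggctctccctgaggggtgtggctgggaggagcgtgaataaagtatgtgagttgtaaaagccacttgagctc
S100a4, chr3:90603520-90603769, plus strand: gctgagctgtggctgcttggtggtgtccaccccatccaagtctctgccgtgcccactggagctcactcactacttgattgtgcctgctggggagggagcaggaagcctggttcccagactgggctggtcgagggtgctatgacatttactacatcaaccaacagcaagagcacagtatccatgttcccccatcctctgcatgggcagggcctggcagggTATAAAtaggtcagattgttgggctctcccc
Ly6c1, chr15:75048838-75049087, minus strand: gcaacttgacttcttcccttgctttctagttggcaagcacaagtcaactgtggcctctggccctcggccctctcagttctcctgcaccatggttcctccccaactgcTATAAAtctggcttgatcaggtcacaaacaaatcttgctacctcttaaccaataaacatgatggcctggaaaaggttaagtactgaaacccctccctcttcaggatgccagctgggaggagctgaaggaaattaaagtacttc
The windows differed in base composition. G and C made up 62.8% of the Emp2 window, 53.6% of the Fgfbp1 window, 57.2% of the S100a4 window and 48.4% of the printed Ly6c1 window (53.2% of the other), against a median of 52.4% over all 32851 windows of this length. On either strand none of the 5 windows of these 4 genes held AP-1 TGANTCA (in 6.75% of all windows), TEAD GGAATG (12.6%), the ISRE core (2.98%), GAS TTCNNNGAA (7.02%), ETS CCGGAAGT (2.88%) or SP/KLF GGGCGGGG (16.1%). Only exact matches were sought, so shorter or varied sites are not covered. The Emp2 window, for example, holds GGGCGG, a shorter form of the SP/KLF motif. TATAAA, searched on the printed strand only and after the sequences had been seen, began 31 bases before the S100a4 start and 143 bases before the printed Ly6c1 start; the other Ly6c1 window does not hold it. It is in 7.59% of all windows.

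Libraries held 24823560 to 36879661 gene counts, and levels are given as CPM, counts per 1000000 counts after TMM scaling in edgeR, with mean ± SD over 3 libraries. Replicate 3 of RasG12V and replicate 3 of untransformed cells stood apart from the other libraries of their groups. A chi-square over genes, divided by the number of genes, came to 93.5 and 85.4 between RasG12V replicate 3 and its partners and 4.61 between those partners. It was 56.0 and 56.9 for untransformed replicate 3, 8.17 between its partners, and 9.71 to 19.3 between libraries of 1 knockout. Mitochondrial genes took 1.92% of counts in RasG12V replicate 3 and 1.18% to 1.54% in the other 11 libraries. Hras, the gene of the oncoprotein used for transformation, averaged 451 ± 6.07 CPM in Cdk8 knockout libraries and 422 ± 18.7 CPM in Cdk19 knockout libraries, against 510, 537 and 313 CPM in the RasG12V libraries and 50.0 ± 8.57 CPM in untransformed cells. All 6 knockout libraries thus lay between RasG12V replicate 3 and the other RasG12V libraries, and the part of the Hras level in the results below was not tested. The targeted genes kept most of their counts: Cdk8 had 42.8 ± 1.30 CPM in the Cdk8 knockout against 50.9 to 56.4 CPM in RasG12V and 43.7 to 49.6 CPM in untransformed cells, and Cdk19 had 49.8 ± 4.22 CPM in the Cdk19 knockout against 64.7 to 93.6 CPM in RasG12V and 83.4 to 91.7 CPM in untransformed cells. The Cdk8 levels of the Cdk8 knockout thus lay below those of RasG12V but overlapped those of untransformed cells. A count over a whole gene does not show which exons were read. Fold changes of the 6 genes that rest on replicate 3 of either group are given with and without it. For single genes among their relatives and partners, fold changes are given from 1 fit only, while the calls of each list are counted in both. In comparisons that involve a knockout, that fit is the one without replicate 3 of RasG12V and untransformed cells.

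The 14 hepatic progenitor markers followed, of which 13 were tested, summed to 7524 to 8574 CPM in Cdk8 knockout libraries, 6964 to 8049 CPM in Cdk19 knockout libraries, 6737 to 9598 CPM in RasG12V and 8623 to 10183 CPM in untransformed cells. The keratin genes Krt18, Krt19 and Krt8 made up most of these sums, while Epcam had 26 counts over all 12 libraries, and Alb was at or near 0 in every transformed library, against 1.73 to 4.12 CPM in untransformed cells. Of the cells in which Ly6a and Ly6c1 are best known, endothelial cells and leukocytes were followed by markers, and blood progenitors were not. The sums of both lists were far below those of the hepatic progenitor markers. Those of the macrophage and leukocyte list were nevertheless within or above the range of the Ly6a levels given below. The 8 endothelial markers, of which 1 was tested, summed to 0.487 to 0.624 CPM in Cdk8 knockout libraries, 0.276 to 0.669 CPM in Cdk19 knockout libraries, 0.532 to 0.633 CPM in RasG12V and 0.284 to 0.495 CPM in untransformed cells, with Kdr and Emcn at 0 throughout. The 9 macrophage and leukocyte markers, of which 3 were tested, summed to 5.13 to 6.09 CPM in Cdk8 knockout libraries, 4.41 to 5.22 CPM in Cdk19 knockout libraries, 4.01 to 7.93 CPM in RasG12V and 3.68 to 4.62 CPM in untransformed cells, with Adgre1 and Cd3e at 0. The highest of these sums, 7.93 CPM, was that of RasG12V replicate 3, and its part in the higher Ly6a and Ly6c1 levels of that library was not tested. The mean levels of both genes were highest in the Cdk19 knockout. Its sums overlapped those of the Cdk8 knockout only between 5.13 and 5.22 CPM and otherwise lay lower. How these sums relate to the levels of the genes was not tested. Cd68 alone was at 3.56 to 4.15 CPM in Cdk19 knockout libraries. The 10 stellate cell and fibroblast markers, of which 1 was tested, summed to 1.84 to 2.37 CPM in Cdk8 knockout libraries, 1.49 to 1.76 CPM in Cdk19 knockout libraries, 1.87 to 2.33 CPM in RasG12V and 0.533 to 1.13 CPM in untransformed cells, with Lum at 0. The 5 mesothelial markers, of which 3 were tested, summed to 1374 to 1427 CPM in Cdk8 knockout libraries, 1091 to 1186 CPM in Cdk19 knockout libraries, 1292 to 1375 CPM in RasG12V and 1363 to 1659 CPM in untransformed cells. Msln alone made up nearly all of this sum, with 1374 to 1427 CPM in Cdk8 knockout libraries, whereas Wt1 had 17 counts and Gpm6a 3 over all 12 libraries.

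Because the genes were chosen for it, the difference between each knockout and RasG12V is described here without a test. The rule behind the choice was a loose one: in 1133 of the 14283 tested genes (7.93%) all 6 knockout libraries stood above RasG12V replicates 1 and 2. Ranked by the lowest knockout library over the higher of those RasG12V libraries, Ly6c1 stood 5th with a ratio of 2.40 and Ly6a 13th with 1.84. S100a4 stood 49th with 1.40, Emp2 55th with 1.38, Fgfbp1 63rd with 1.36 and Kbtbd11 151st with 1.18, the closest of the listed genes to the edge of the rule. As means over RasG12V replicates 1 and 2, the Cdk8 knockout was 1.61-fold higher for Fgfbp1, 1.68-fold for Kbtbd11 and 1.61-fold for S100a4, and the Cdk19 knockout 1.54-fold, 1.64-fold and 1.86-fold in the same order. RasG12V replicate 3 played no part in the choice. It too lay below all 6 knockout libraries for Fgfbp1, Kbtbd11 and Ly6a, which is 3 of the 6 genes, whereas 291 of all tested genes (2.04%) have every knockout library above all 3 RasG12V libraries; since the rule fixed most of that pattern, the share among the 1133 genes that meet it, 25.7%, is the closer background. Taken singly, the Cdk8 knockout cleared all 3 RasG12V libraries in 3 of the 6 genes (6.36% of all tested genes did) and the Cdk19 knockout in 5 of the 6 (6.75% of all tested genes did), shares that the choice of genes largely fixed. For S100a4 5 of the 6 knockout libraries were above RasG12V replicate 3, for Ly6c1 4 and for Emp2 2.

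**Figure D1:**
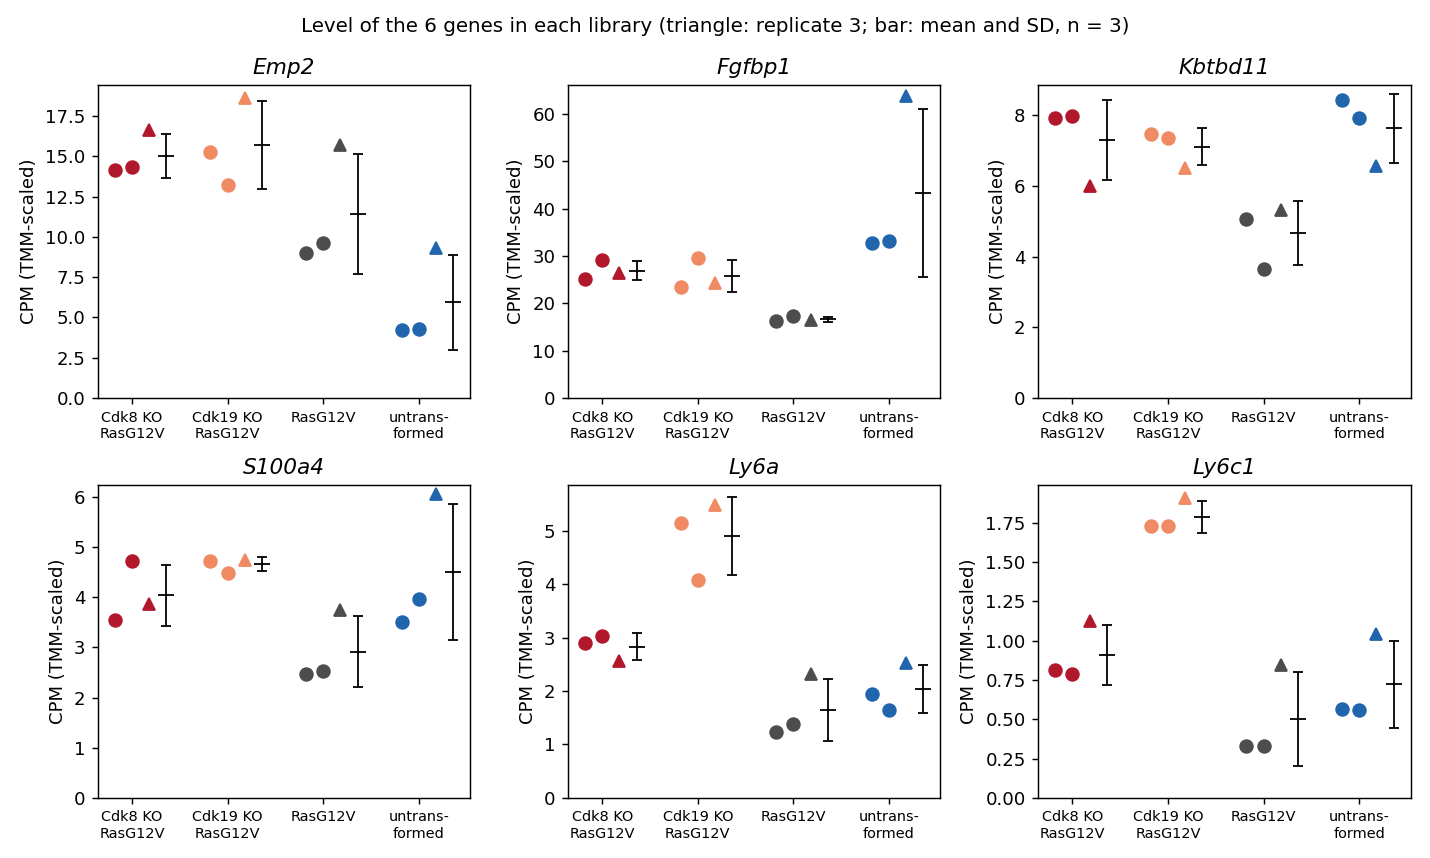
Level of each gene in CPM (y axis, linear from 0) in the 12 libraries, by group from left to right: Cdk8 knockout, Cdk19 knockout, RasG12V and untransformed; points are libraries, triangles mark replicate 3, and the bar beside each group is the mean and SD over 3 libraries. Ly6a and Ly6c1 are highest in the 3 Cdk19 knockout libraries, Fgfbp1 is highest in untransformed cells, and Emp2 in RasG12V replicate 3 (15.7 CPM) lies among the knockout libraries.

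Emp2, the membrane protein gene, was the 1 gene of the 6 with a higher mean in RasG12V than in untransformed cells. Emp2 had 14.1, 14.3 and 16.6 CPM in Cdk8 knockout libraries and 15.2, 13.2 and 18.6 CPM in Cdk19 knockout libraries, against 8.97, 9.61 and 15.7 CPM in RasG12V and 4.23, 4.27 and 9.33 CPM in untransformed cells. RasG12V replicate 3 and untransformed replicate 3 were each the highest library of their group, RasG12V replicate 3 lay above 4 of the 6 knockout libraries, and untransformed replicate 3 lay between RasG12V replicates 1 and 2. Over RasG12V replicates 1 and 2 the mean was 1.62-fold higher in the Cdk8 knockout and 1.69-fold higher in the Cdk19 knockout. With all 3 RasG12V libraries the log2 fold change was 0.39 (SE 0.29) for the Cdk8 knockout and 0.46 (SE 0.29) for the Cdk19 knockout; without replicate 3 of RasG12V and untransformed cells it was 0.70 and 0.77. All 6 knockout libraries were above every untransformed library. Taken singly, the Cdk8 knockout had every library above every untransformed one in 20.6% of all tested genes, and the Cdk19 knockout in 21.7%. The share for both knockouts at once is not given, and the choice of genes favoured high knockout levels. In bulk RNA a lower level per cell and fewer cells with the transcript cannot be told apart, here and for the genes below.

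Fgfbp1, the growth factor carrier gene, showed the opposite order with respect to transformation. Fgfbp1 had 25.2, 29.1 and 26.3 CPM in Cdk8 knockout libraries and 23.5, 29.6 and 24.3 CPM in Cdk19 knockout libraries, against 16.2, 17.3 and 16.5 CPM in RasG12V and 32.8, 33.2 and 63.8 CPM in untransformed cells. The 4 groups fell into 3 levels that did not overlap, with RasG12V lowest, both knockouts together in the middle and untransformed cells highest. The choice of genes fixed most of the lower gap. All 6 knockout libraries were above all 3 RasG12V libraries in 2.04% of all tested genes, and in 25.7% of those that meet the rule. Every Cdk8 knockout library was below every untransformed one in 22% of all tested genes, and every Cdk19 knockout library in 22.1%. RasG12V replicate 3 was 0.988 times the mean of the other RasG12V libraries. The log2 fold change over RasG12V was 0.69 (SE 0.22) for the Cdk8 knockout and 0.63 (SE 0.22) for the Cdk19 knockout, the same to 2 decimals with and without replicate 3 of RasG12V and untransformed cells. Untransformed replicate 3 was 1.93 times the mean of its partners, and the log2 fold change of RasG12V over untransformed cells was -1.38 (SE 0.22) with replicate 3 of both groups and -0.997 without them. Even against untransformed replicates 1 and 2 the knockouts stayed lower, since their highest library had 29.6 CPM.

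Kbtbd11, the BTB and kelch gene, was lowest in RasG12V, and its knockout libraries overlapped those of untransformed cells. Kbtbd11 had 7.93, 7.98 and 5.99 CPM in Cdk8 knockout libraries and 7.48, 7.36 and 6.53 CPM in Cdk19 knockout libraries, against 5.07, 3.64 and 5.34 CPM in RasG12V and 8.45, 7.92 and 6.56 CPM in untransformed cells. Every RasG12V library was below every library of the other groups. The choice of genes fixed most of that order for the knockouts, which 2.04% of all tested genes showed, and 25.7% of those that meet the rule. In 16.2% of all tested genes every RasG12V library was below every untransformed one. Replicate 3 was the lowest library in the Cdk8 knockout, the Cdk19 knockout and untransformed cells, and the gap to RasG12V came down to 5.99 CPM in the Cdk8 knockout against 5.34 CPM in RasG12V. The log2 fold change was 0.64 (SE 0.17) for the Cdk8 knockout and 0.60 (SE 0.18) for the Cdk19 knockout over RasG12V, and -0.70 (SE 0.17) for RasG12V over untransformed cells. Without replicate 3 of RasG12V and untransformed cells these values were 0.74, 0.71 and -0.92. An antisense gene model, Gm37844, covers 1772 of the 7137 exon bases of Kbtbd11. The counts used here are those of the strand of Kbtbd11.

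S100a4, the calcium-binding protein gene, also had its lowest mean in RasG12V, with more overlap between groups than Kbtbd11. S100a4 had 3.54, 4.72 and 3.86 CPM in Cdk8 knockout libraries and 4.73, 4.49 and 4.75 CPM in Cdk19 knockout libraries, against 2.48, 2.54 and 3.74 CPM in RasG12V and 3.51, 3.96 and 6.05 CPM in untransformed cells. The knockout libraries all fell inside the range of untransformed cells, and RasG12V replicate 3 lay above Cdk8 knockout replicate 1. The log2 fold change over RasG12V was 0.46 (SE 0.23) for the Cdk8 knockout and 0.67 (SE 0.23) for the Cdk19 knockout, and 0.70 and 0.90 without replicate 3 of RasG12V and untransformed cells. S100a4 shares 302 of its 584 exon bases with Gm42674, a model on the same strand that had 0 counts in all 12 libraries; reads in the shared bases could not be given to either, so the S100a4 level may miss them.

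Ly6a and Ly6c1, the LY6 surface protein genes, were lowest in RasG12V replicates 1 and 2 and highest in the Cdk19 knockout. Ly6a had 2.90, 3.04 and 2.56 CPM in Cdk8 knockout libraries and 5.15, 4.08 and 5.49 CPM in Cdk19 knockout libraries, against 1.24, 1.39 and 2.32 CPM in RasG12V and 1.95, 1.64 and 2.53 CPM in untransformed cells. Every Cdk19 knockout library was above the other 9, and every Cdk8 knockout library was above the 6 RasG12V and untransformed ones, if only by 2.56 against 2.53 CPM. Of all tested genes, 20.6% had every Cdk8 knockout library above every untransformed one. For RasG12V the share was 6.36%, and the choice of genes fixed part of that pattern. Over RasG12V replicates 1 and 2 the mean of Ly6a was 2.15-fold higher in the Cdk8 knockout and 3.73-fold higher in the Cdk19 knockout. With all libraries its log2 fold change over RasG12V was 0.76 (SE 0.25) for the Cdk8 knockout and 1.56 (SE 0.25) for the Cdk19 knockout, and 1.11 and 1.91 without replicate 3 of RasG12V and untransformed cells.

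Ly6c1 had 0.814, 0.787 and 1.13 CPM in Cdk8 knockout libraries and 1.73, 1.73 and 1.91 CPM in Cdk19 knockout libraries, against 0.328, 0.327 and 0.844 CPM in RasG12V and 0.568, 0.557 and 1.04 CPM in untransformed cells. These levels rest on few reads: 23, 29 and 37 counts in the Cdk8 knockout and 49, 50 and 57 in the Cdk19 knockout, against 9, 8 and 28 in RasG12V and 16, 18 and 35 in untransformed cells. Over RasG12V replicates 1 and 2 the mean of Ly6c1 was 2.77-fold higher in the Cdk8 knockout and 5.46-fold higher in the Cdk19 knockout. The exact 95% Poisson interval, which covers counting error only, was 4.12 to 17.1 for the 9 counts and 3.45 to 15.8 for the 8. The Cdk19 knockout libraries were above all 9 others here too, a pattern met by both LY6 genes and none of the other 4, and by 1.41% of all tested genes. The choice had already put every Cdk19 knockout library above RasG12V replicates 1 and 2, and among the 1133 genes that meet its rule the share was 2.65%. RasG12V replicate 3 was 2.58 times the mean of its partners and above 2 of the 3 Cdk8 knockout libraries, and the log2 fold change over RasG12V was 0.81 (SE 0.38) for the Cdk8 knockout and 1.79 (SE 0.37) for the Cdk19 knockout with it, and 1.46 and 2.44 without replicate 3 of RasG12V and untransformed cells. The 2 genes also share sequence: 15.0% of the 50-base windows of Ly6a exons occur in Ly6c1 and 11.1% of those of Ly6c1 in Ly6a, and 21.5% of those of Ly6c1 occur in Ly6c2. Reads that lie wholly within such windows can map to several places and are then not counted, so part of each transcript may not be seen. How many reads were lost in this way was not measured.

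Whether the knockouts differed from each other is a question the choice of genes did not settle, and it was tested over all genes. The choice did use the same knockout libraries, however, and it favoured genes that are high in them. Shares given here and in the next paragraph are over all genes tested. They are not given for the 1133 genes that meet the rule, which would be the closer background. Ly6a and Ly6c1 were lower in the Cdk8 knockout than in the Cdk19 knockout, with no overlap between libraries, and the other 4 genes overlapped. A lack of overlap in that direction was seen in 9.59% of all tested genes. The log2 fold change of the Cdk8 over the Cdk19 knockout was -0.79 (SE 0.24) for Ly6a, and its 95% interval ran from -1.31 to -0.28. For Ly6c1 it was -0.97 (SE 0.34), with an interval from -1.71 to -0.24. In linear terms the mean of the Cdk19 knockout was 1.73-fold higher for Ly6a and 1.97-fold higher for Ly6c1.

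Neither passed with all 12 libraries in the fit. The edgeR quasi-likelihood p was 0.00579 for Ly6a and 0.0139 for Ly6c1, and after Benjamini-Hochberg adjustment over all 14283 genes the values were 0.378 and 0.510. So 0 of the 6 genes were called between the knockouts, where 0.105% of all tested genes were, and 2 of 6 had an unadjusted p under 0.05, as had 7.19% of all genes; DESeq2 gave adjusted p-values of 0.110 for Ly6a and 0.342 for Ly6c1. Without replicate 3 of RasG12V and of untransformed cells, neither of which is a knockout library but both of which enter the shared estimate of spread, the same fold changes had SE of 0.16 and 0.23. The adjusted p of edgeR was then 0.00455 for Ly6a and 0.0159 for Ly6c1, so 2 of 6 passed, and 5.32% of the genes tested in that fit did. Over all alternatives the adjusted p ran from 0.00455 to 0.891 for Ly6a and from 0.0159 to 1.0 for Ly6c1, while the direction was the same in each.

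The other 4 genes did not pass between the knockouts in either fit, and the data bound how far apart they could be. With all libraries the log2 fold change of the Cdk8 over the Cdk19 knockout was -0.06 for Emp2 (95% interval -0.69 to 0.56) and 0.06 for Fgfbp1 (-0.40 to 0.52). It was 0.04 for Kbtbd11 (-0.34 to 0.41) and -0.20 for S100a4 (-0.69 to 0.28). Without replicate 3 of RasG12V and untransformed cells the intervals narrowed to -0.30 to 0.17 for Emp2, -0.12 to 0.24 for Fgfbp1, -0.25 to 0.31 for Kbtbd11 and -0.49 to 0.09 for S100a4. The sign of Emp2 and of Kbtbd11 turned when single knockout libraries were left out, so no order of the knockouts can be given for them.

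**Figure D2:**
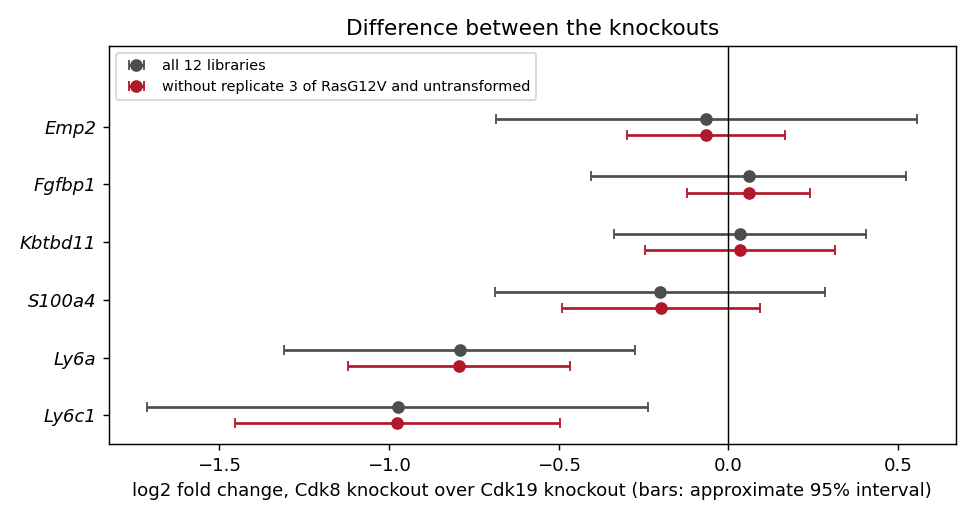
Log2 fold change of the Cdk8 knockout over the Cdk19 knockout (x axis) for each gene, with approximate 95% intervals, from the fit of all 12 libraries (grey) and the fit without replicate 3 of RasG12V and untransformed cells (red). The intervals of Ly6a (-1.31 to -0.28, grey) and Ly6c1 (-1.71 to -0.24, grey) lie below 0 and those of the other 4 genes include 0.

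Set against untransformed cells, the genes fell into different orders. The RasG12V libraries share replicates 1 and 2 with the choice of genes, so the values are given without a test. The knockout libraries were used in the choice as well, which favoured genes that are high in them. All 3 RasG12V libraries were below every untransformed library for Fgfbp1 and Kbtbd11, which is 2 of the 6 genes, against 16.2% of all tested genes; for S100a4, Ly6a and Ly6c1 2 of the 3 RasG12V libraries were, and for Emp2 2 of 3 were above. The log2 fold change of RasG12V over untransformed cells was 0.94 (SE 0.30) for Emp2, -0.62 (SE 0.23) for S100a4, -0.29 (SE 0.26) for Ly6a and -0.50 (SE 0.39) for Ly6c1. Without replicate 3 of both groups it was 1.11 for Emp2, -0.997 for Fgfbp1, -0.92 for Kbtbd11, -0.59 for S100a4, -0.46 for Ly6a and -0.79 for Ly6c1. The knockouts lay above every untransformed library for Emp2 and Ly6a in all 6 libraries and for Ly6c1 in 1 Cdk8 and 3 Cdk19 knockout libraries. Of all tested genes, 20.6% had no overlap in that direction for the Cdk8 knockout and 21.7% for the Cdk19 knockout. For Fgfbp1 the knockouts lay below every untransformed library in all 6, against a lack of overlap in that direction in 22% of all tested genes for the Cdk8 knockout and 22.1% for the Cdk19 knockout. Kbtbd11 and S100a4 overlapped untransformed cells in both knockouts. Emp2 was thus above the untransformed mean in all 9 transformed libraries, Fgfbp1 below it in all 9, and Ly6a below every untransformed library in RasG12V replicates 1 and 2 and above every one in both knockouts.

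**Figure D3:**
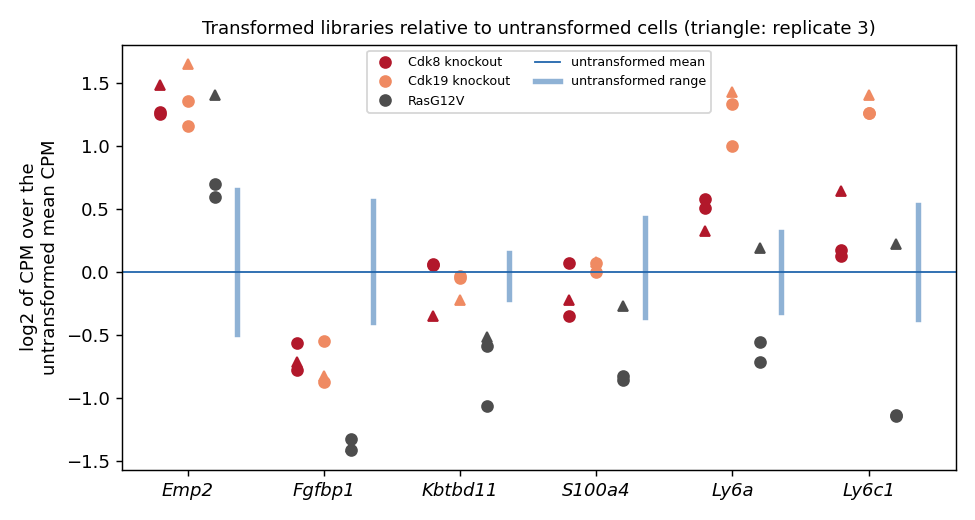
Log2 of each transformed library's CPM over the mean of untransformed cells (y axis) for each gene; within a gene, Cdk8 knockout, Cdk19 knockout and RasG12V run from left to right, triangles mark replicate 3, and the bar shows the range of the untransformed libraries around their mean (line at 0). Fgfbp1 lies below the line in all 9 transformed libraries and Emp2 above it in all 9, while Kbtbd11 and S100a4 in the knockouts reach into the untransformed range.

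Replicate 3 of RasG12V and of untransformed cells carried higher levels of most of these genes. In RasG12V, replicate 3 over the mean of replicates 1 and 2 was 1.69 for Emp2, 0.988 for Fgfbp1, 1.23 for Kbtbd11, 1.49 for S100a4, 1.77 for Ly6a and 2.58 for Ly6c1. In untransformed cells the same ratio was 2.198 for Emp2, 1.93 for Fgfbp1, 0.802 for Kbtbd11, 1.62 for S100a4, 1.41 for Ly6a and 1.86 for Ly6c1. For 4 of the 6 genes (Emp2, S100a4, Ly6a and Ly6c1) replicate 3 was the highest library in both groups, as it was for 25.2% of all tested genes. The choice favoured genes low in RasG12V replicates 1 and 2, and so also a higher replicate 3 in RasG12V. The share among the 1133 genes that meet the rule is not given. Fgfbp1 was highest in untransformed replicate 3 and unmoved in RasG12V replicate 3, and Kbtbd11 had ratios on either side of 1.

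**Figure D4:**
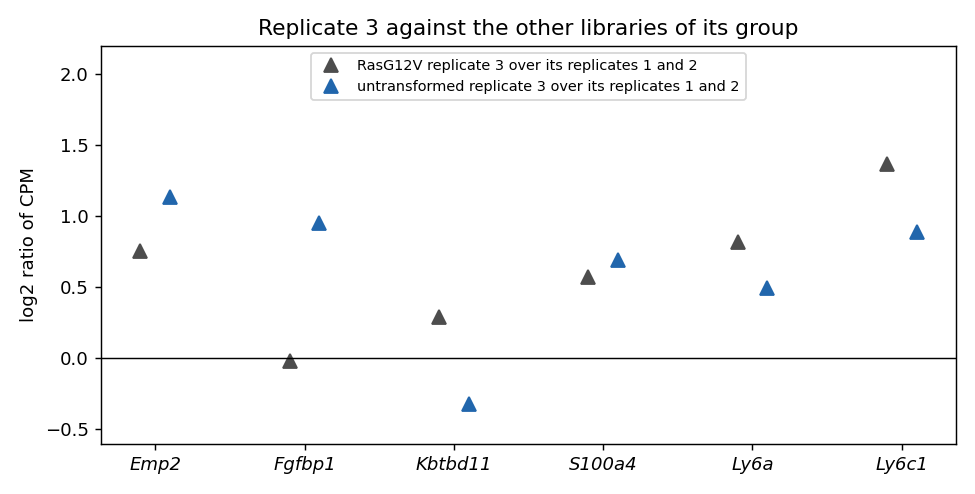
Log2 ratio of replicate 3 to the mean of replicates 1 and 2 (y axis) in RasG12V (grey) and in untransformed cells (blue) for each gene. Both ratios are above 0 for Emp2, S100a4, Ly6a and Ly6c1, while Fgfbp1 has ratios of 0.988 in RasG12V and 1.93 in untransformed cells and Kbtbd11 has ratios of 1.23 in RasG12V and 0.802 in untransformed cells.

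Per kilobase of exon, the mean level over all 12 libraries was 12.4 CPM for Fgfbp1, 6.90 CPM for S100a4, 2.37 CPM for Ly6a, 1.39 CPM for Emp2, 0.937 CPM for Kbtbd11 and 0.584 CPM for Ly6c1, so Emp2 was above S100a4 in CPM and below it per kilobase. Across the 12 libraries, which share groups and the replicates that stand apart, the log2 CPM of Ly6a and Ly6c1 had a Pearson r of 0.952, the highest of the 15 pairs. For Ly6a no tested protein-coding gene had a higher r than Ly6c1, and next came Nelfa (0.918), a subunit of the NELF complex that pauses RNA polymerase II, and Plekhf1 (0.908). For Ly6c1 the order was Ly6a, Plekhf1 (0.887) and Gstp2 (0.869), a glutathione transferase. S100a4 had an r of 0.783 with Ly6c1 and 0.740 with Fgfbp1, and Emp2 and Fgfbp1 one of -0.301.

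The genes nearest in pattern to the other 4 were of mixed kinds. For Emp2 they were Sgcb (0.972), a sarcoglycan, Thrb (0.971), a thyroid hormone receptor, and Tstd3 (0.967). For Fgfbp1 they were Hmgb3 (0.938), Fzd2 (0.929), a Wnt receptor, and Gcdh (0.928). For Kbtbd11 they were Atp5h (0.916) and Ndufs8 (0.872), subunits of the mitochondrial ATP synthase and complex I, and Galnt12 (0.913). For S100a4 they were Gtf3a (0.926), Idh2 (0.899) and Dnal4 (0.892). These are the leading values over all tested protein-coding genes and carry no test.

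With all 12 libraries, none of the neighbouring genes passed with edgeR in a comparison that involves a knockout. Ly6e, the nearest tested gene on the other side of Ly6a at 34971 bases, is a LY6 gene itself. Ly6e averaged 0.947 ± 0.136 CPM in Cdk8 knockout libraries and 1.32 ± 0.170 CPM in Cdk19 knockout libraries, against 0.680 ± 0.183 CPM in RasG12V and 0.336 ± 0.112 CPM in untransformed cells, so the order of the transformed groups was that of Ly6a. S100a6, 6836 bases from S100a4, averaged 7107 ± 1587 CPM in Cdk8 knockout libraries and 7879 ± 323 CPM in Cdk19 knockout libraries, against 7880 ± 1173 CPM in RasG12V. On the other side of S100a4, at 12262 bases, S100a2 was low throughout. It averaged 0.444 CPM in Cdk8 knockout libraries and 0.195 CPM in Cdk19 knockout libraries, against 0.408 CPM in RasG12V. Prom1, 11840 bases from Fgfbp1, averaged 5.75 CPM in Cdk8 knockout libraries and 5.93 CPM in Cdk19 knockout libraries, against 6.46 CPM in RasG12V. Arhgef10, 9939 bases from Kbtbd11, averaged 13.4 CPM in Cdk8 knockout libraries and 13.5 CPM in Cdk19 knockout libraries, against 11.8 CPM in RasG12V.

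The relatives and partners of the 6 genes were followed in 7 lists, and with all 12 libraries none of their tested genes passed with edgeR in a comparison that involves a knockout. Over all tested genes, 0 passed for the Cdk8 knockout against RasG12V (871 had an unadjusted p under 0.05, and DESeq2 called 30), 2 for the Cdk19 knockout against RasG12V and 15 between the knockouts. The LY6 list had 6 tested genes of 32. Its median log2 fold change was 0.18 for the Cdk8 knockout and 0.27 for the Cdk19 knockout over RasG12V, beside -0.01 over all genes in both. Without replicate 3 of RasG12V and untransformed cells, 1 of 7 tested LY6 genes passed against RasG12V in each knockout: Psca, which encodes a GPI-anchored surface protein, rose by 0.52 in the Cdk8 knockout (SE 0.08, edgeR adjusted p = 0.00346) and by 0.63 in the Cdk19 knockout (SE 0.08, edgeR adjusted p = 0.000427), both log2 over RasG12V. In that fit 1.59% of all genes passed for the Cdk8 knockout and 2.01% for the Cdk19 knockout.

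The interferon list, 18 tested genes of 30, had medians of 0.02 for the Cdk8 knockout and -0.04 for the Cdk19 knockout over RasG12V, while Ly6a and Ly6c1 had the fold changes given above. Irf1, a transcription factor induced by interferon, averaged 32.3 ± 3.69 CPM in Cdk8 knockout libraries and 32.7 ± 1.73 CPM in Cdk19 knockout libraries, against a mean of 34.0 CPM in RasG12V. Without replicate 3 of RasG12V and untransformed cells, 2 of the 18 passed in the Cdk8 knockout, both upward, and 1 did so for the Cdk19 knockout. Ifitm2, an antiviral membrane protein gene, rose by 0.65 (SE 0.13, edgeR adjusted p = 0.0186) in the Cdk8 knockout and by 0.57 (SE 0.13, edgeR adjusted p = 0.0308) in the Cdk19 knockout. Ifi27 rose in the Cdk8 knockout over RasG12V in that fit, by 1.36 (SE 0.32, edgeR adjusted p = 0.0385), and was higher in the Cdk8 than in the Cdk19 knockout by 1.30 (SE 0.27, edgeR adjusted p = 0.00703), the opposite of Ly6a and Ly6c1.

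Calls in the other lists are from the same fit, in which 1.59% of all genes passed against RasG12V for the Cdk8 knockout, 2.01% for the Cdk19 knockout and 5.32% between the knockouts. Among 14 tested relatives and partners of Emp2, 2 rose and 1 fell in each knockout. The caveolin gene Cav1 rose by 0.49 (SE 0.07) in the Cdk8 knockout and by 0.37 (SE 0.07) in the Cdk19 knockout, with edgeR adjusted p-values of 0.00108 and 0.00732. Pmp22, the gene that names the Emp2 family, rose by 1.496 (SE 0.33, edgeR adjusted p = 0.0238) in the Cdk19 knockout. The integrin gene Itgb3 rose and Itgav fell in the Cdk8 knockout, and Perp fell in the Cdk19 knockout. In the FGF list (19 tested of 25) 2 rose and 1 fell in the Cdk8 knockout, and 0 rose and 1 fell in the Cdk19 knockout. Fgf1, a ligand of the kind that Fgfbp1 carries, rose by 0.59 (SE 0.12, edgeR adjusted p = 0.0323) in the Cdk8 knockout, and was higher there than in the Cdk19 knockout by 0.56 (SE 0.11, edgeR adjusted p = 0.00825). Sdc1, a heparan sulphate proteoglycan gene, was higher in the Cdk8 than in the Cdk19 knockout by 0.40 (SE 0.05, edgeR adjusted p = 9.25e-05). Of 15 S100 genes tested in that fit S100a16 rose by 0.39 (SE 0.07, edgeR adjusted p = 0.00966) in the Cdk8 knockout and none passed in the Cdk19 knockout. Of 27 BTB-kelch genes and CUL3 adaptors Klhl13 rose by 0.31 (SE 0.07, edgeR adjusted p = 0.0345) in the Cdk19 knockout and none passed in the Cdk8 knockout. None of the 10 tested binding partners of S100a4, myosins and tropomyosins among them, passed against RasG12V in either knockout. Between the knockouts 2 of these 10 passed: Myl6, a myosin light chain gene, was higher in the Cdk8 than in the Cdk19 knockout by 0.27 (SE 0.05, edgeR adjusted p = 0.00472), and the tropomyosin gene Tpm4 by 0.25 (SE 0.05, edgeR adjusted p = 0.00837). The other lists held between the knockouts 2 calls higher in the Cdk8 knockout for the FGF genes, 2 higher for the interferon genes, 1 higher and 1 lower for the relatives and partners of Emp2, 1 higher for the S100 genes, 1 lower for the BTB-kelch genes and 0 for the LY6 genes.

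In RasG12V against untransformed cells, a comparison in which 23.4% of all genes passed with edgeR (11.9% higher and 11.5% lower), the lists held more calls. Leaving out replicate 3 of each of these groups brought the share to 40%, and the calls of 6 of the 7 lists then differed in number, as given for each list. Of 14 tested S100 genes 6 fell and 0 rose with all 12 libraries, and of 15 tested without replicate 3 of both groups 8 fell and 2 rose, S100a10 by 0.32 (SE 0.08, edgeR adjusted p = 0.00319) and S100pbp, the gene of an S100P-binding protein, by 0.37 (edgeR adjusted p = 0.000514). The largest of these by level was S100a7a with 218 ± 69.3 CPM in RasG12V against 444 ± 58.1 CPM in untransformed cells, a log2 fold change of -1.02 (SE 0.20, edgeR adjusted p = 0.00248), and S100a1, S100a14 and S100g also fell. The median of the list was -0.31, beside a median close to 0 over all genes, and S100a4 itself had -0.62. Of 19 tested FGF system genes 8 fell and 3 rose, with a median of -0.19, and the numbers were the same without replicate 3 of both groups, with a median of -0.02. The genes called were not all the same. Fgf2 rose with all 12 libraries (edgeR adjusted p = 0.0187) and did not pass without replicate 3 of both groups (edgeR adjusted p = 0.0704). The receptor gene Fgfr2 fell by 3.93 (SE 0.36, edgeR adjusted p = 8.71e-06) and Fgfr3 fell by 3.90 (SE 0.45, edgeR adjusted p = 6.35e-05) on the log2 scale, and the ligand gene Fgf18 and Sdc1 also fell, beside a value of -1.38 for Fgfbp1.

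Of the 14 tested relatives and partners of Emp2, 4 rose and 2 fell in RasG12V, with a median of -0.13; without replicate 3 of both groups 4 rose and 5 fell. The integrin gene Itga6 rose by 1.41 (SE 0.07, edgeR adjusted p = 1.28e-07), Perp rose by 0.40 and Emp1 by 0.36, and Cav2 fell; Emp2 itself had 0.94. The Emp1 call was lost when either RasG12V replicate 1 or 2, or untransformed replicate 1 or 3, was left out (edgeR adjusted p from 0.0563 to 0.0870). In the LY6 list Psca fell by 2.32 (SE 0.25, edgeR adjusted p = 3.84e-05) and Ly6e rose by 1.02 (SE 0.32, edgeR adjusted p = 0.0348). The Ly6e call was lost when RasG12V replicate 1 or 2, or untransformed replicate 2 or 3, was left out (edgeR adjusted p from 0.0674 to 0.136). These were the calls of 6 tested LY6 genes; without replicate 3 of both groups 4 of 7 fell and 1 rose. The interferon list had 4 falls and 0 rises of 18 with all 12 libraries, with a median of 0.14 that differs in sign from its calls. It had 4 falls and 4 rises without replicate 3 of both groups, with a median of 0.04; the rises were those of Ifit2 by 0.91, Bst2 by 0.83, Ddx58 by 0.60 and Tap1 by 0.25 (edgeR adjusted p up to 0.0467). BTB-kelch genes had 3 rises, Klhl5 first at 1.16, and 3 falls, Klhl13 first at -1.30, and the S100a4 partners had 1 rise, Ppfibp1 at 1.01, and 1 fall, Tpm1 at -0.39, with medians close to 0. The BTB-kelch genes had 5 rises and 6 falls without replicate 3 of both groups, and the S100a4 partners 3 rises and 2 falls. Of the 37 calls that these lists held in this comparison with all 12 libraries, 14 were lost in at least 1 of the fits that left out a single library. Emp1, Ly6e and Fgf2 were among them. The other genes named here for calls with all 12 libraries kept their calls in every such fit.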

How the data were processed

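RNA from 12 libraries of BMEL cells (4 groups of 3) was depleted of ribosomal RNA per the labels, sequenced, and aligned to GRCm38.p6 with STAR 2.6.0a per the submitters' processing notes, which also name FastQC, with an annotation release not given in the sources used here. The deposited files hold raw counts per Ensembl gene, in columns for unstranded reads and for each strand. The column that held 24.7 to 28.9 times the reads of the opposite strand in every library was used (column 4). Of all reads, 65.2% to 67.0% were in genes, giving 24823560 to 36879661 counts per library; 23.0% to 26.3% mapped to several places, 2.10% to 3.34% were unmapped, 4.31% to 5.85% hit no gene, and 0.963% to 1.04% hit several genes at once; all of these stayed out of library sizes. A floor of 3 counts equals 0.0813 to 0.121 CPM. Without molecular identifiers, PCR copies count as reads, so the floor and the Poisson intervals cover counting error only.

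Symbols and coordinates came from GENCODE M21 for 54079 of 54146 identifiers, and promoter windows from RefSeq. The quasi-likelihood test of edgeR 4.0.16 (R 4.3.3; TMM scaling, filterByExpr on the groups, robust glmQLFit, then glmQLFTest) was run on the counts, all 12 libraries in a single fit of 4 groups without a block, with Benjamini-Hochberg adjustment over the 14283 genes tested and a threshold of 0.05. The SE of a log2 fold change is its size divided by the square root of the F statistic, and intervals are approximate 95% intervals from it. Pearson correlations used log2 CPM with a prior count of 2. The script was tested on simulated data made from these counts. Alternatives were RLE size factors, no filter on low counts, DESeq2 1.42.0, the unstranded column, a replicate block, leaving out each library, and leaving out replicate 3 of both RasG12V and untransformed cells.

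The 6 genes, the family and marker lists and the left-out libraries were chosen with earlier results of these data known. The genes were picked for standing above RasG12V replicates 1 and 2 in both knockouts, so their differences from RasG12V, and from untransformed cells through the same libraries, carry no p-value; the difference between the knockouts was tested. The text names the 6 genes; in each family list up to 4 genes by adjusted p and up to 3 by level; the 3 tested protein-coding genes closest in pattern to each gene; the nearest tested protein-coding gene on each side; and Cdk8, Cdk19 and Hras. Not every gene that this rule gives is printed, and Pmp22, Ifi27, Ifitm2, S100a16, Itgb3, Itgav, Perp, Irf1, Myl6, Tpm4, S100a10, S100pbp, Ifit2, Bst2, Ddx58, Tap1 and Fgf2 were named after their values were seen.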

Additional observations from a re-analysis of the deposited data

How the results depend on the processing

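Between the knockouts edgeR called 15 genes, but 108 with no filter on low counts, 113 with DESeq2 and 771 without replicate 3 of both RasG12V and untransformed cells; leaving out each library in turn gave 0 to 133. For the Cdk8 knockout against RasG12V the count was 0, against 16 with no filter, 30 with DESeq2, 231 without both of these libraries and 0 to 3 with each library left out. For the Cdk19 knockout against RasG12V it was 2, against 84, 66, 291 and 0 to 21 in the same order. For RasG12V against untransformed cells it was 3340, against 5799 without both of these libraries and 2359 to 4808 with each library left out. The cause was not tested. The largest counts from a single library left out were those without RasG12V replicate 3 (133) and untransformed replicate 3 (73) between the knockouts, and the smallest, 0, were those without Cdk8 knockout replicate 3, Cdk19 knockout replicate 1 or Cdk19 knockout replicate 3.

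Whether replicate numbers pair the libraries could not be settled. Deviations from group means correlated at -0.17 to 0.28 over 18 same-numbered pairs, 8 of them over 0.1. Pairs with other numbers correlated at -0.29 to 0.22. Of 12 libraries, 6 matched best with their own number. The highest value was that of RasG12V replicate 3 with Cdk19 knockout replicate 3, and an effect shared by libraries of the same number was not tested. With a replicate block, 1 gene was called for the Cdk8 knockout against RasG12V, 2 for the Cdk19 knockout, 17 between the knockouts and 3685 for RasG12V against untransformed cells, and no listed gene changed its call.

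Among log2 fold changes of the 6 genes, the difference between the knockouts turned in sign for Emp2 without Cdk19 knockout replicate 3 (0.0774; range -0.170 to 0.0774 with each library left out). It turned for Kbtbd11 without Cdk8 knockout replicate 1 (-0.0218), Cdk8 knockout replicate 2 (-0.0286) or Cdk19 knockout replicate 3 (-0.0239), with a range of -0.0286 to 0.157. Ly6a and Ly6c1 passed between the knockouts only without both of these libraries, at log2 fold changes of -0.79 and -0.97. Of the other values, 413 kept their sign and their side of the threshold or moved by less than the SD between libraries, and 13 untested ones moved by more. Those 13 came from leaving out replicate 3 of RasG12V, of untransformed cells or of both. RLE scaling gave the same directions. Depth limits Ly6c1 most, at 8 and 9 counts in RasG12V replicates 2 and 1.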
